A study of Homo sapiens with 8 samples.

Results

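The proteasome and the CCT chaperonin were described here through 58 genes, out of 17491 genes measured on human Affymetrix arrays. The genes were chosen by symbol alone: those beginning with PSMA to PSMG and a digit, those beginning with CCT2 to CCT8, and TCP1, each through the probe set with the highest mean. By role, 44 belong to the proteasome and its helpers and 8 to CCT, and 6 matched by name only. TCP1, PSMC5, PSMD7, PSMD13 and PSME2 had no probe set named for them here and were not analysed here. RNA came from whole lymph nodes holding metastases of SkMel147, a human skin melanoma line grown under the skin of BALB/c nude mice, which lack a thymus and most T cells. The 4 vehicle mice drank water with the vehicle, and the 4 doxycycline mice drank water with doxycycline to induce Omomyc, a MYC-derived protein that blocks MYC from its target genes, in the tumour cells. Dosing began near a tumour volume of 750 mm3, and nodes were taken 2 days after treatment. All 8 arrays therefore carry a single tumour line in an immunodeficient host, and an effect of doxycycline itself cannot be told apart from one of Omomyc, since doxycycline without the inducible protein was not among these groups.

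The proteasome degrades proteins marked with ubiquitin. Its 20S core stacks rings of alpha subunits, which gate the entrance, and of beta subunits, which hold the cutting sites, and its 19S cap recognises ubiquitin, unfolds the substrate with a ring of ATPases and feeds it into the core. Under interferon-gamma, and constantly in lymphoid cells, the inducible beta subunits PSMB8, PSMB9 and PSMB10 replace their constitutive relatives to form the immunoproteasome, which shapes the peptides shown on MHC class I. CCT, also called TRiC, is a double ring of related subunits that folds actin, tubulin and many other proteins, and growing cells keep both machines at high levels. Values below are log2 expression values on the scale of RMA, the array method the submitters used, so a difference of 1 is a change of 2 times. A probe set's brightness also depends on its probes, so levels of different genes are not ranked as amounts of RNA. In whole nodes, fewer cells of a type and less RNA per cell cannot be told apart, and the human probes may also have read mouse RNA, which was not tested.

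Vehicle replicate 1 stood apart from the rest, and most differences between the groups are also given without it. Its mean correlation with the other 7 arrays across genes was 0.941, while those 7 correlated pairwise at 0.972 to 0.983. Array medians lay between 5.07 and 5.12. Its melanoma markers did not run above those elsewhere: the mean over 8 measured melanoma markers was 4.98 in vehicle replicate 1 and 5.20 to 5.33 in the other 7 arrays. Of those 8 markers 6 lay above the median level of all genes, 5.09, and the pigment genes TYR and TYRP1, at 3.75 and 4.19 over the 7 arrays, lay below it. Markers of skeletal muscle were lowest there, with a mean over 10 genes of 6.15 against 6.38 to 7.14. So were those of adipocytes (5.20 against 5.25 to 5.86, 8 genes), lymphocytes (5.40 against 5.51 to 5.74, 8 genes) and fibroblasts (5.89 against 5.91 to 6.15, 8 genes). The mean over all genes was also lowest there, at 5.14 against 5.16 to 5.19, and this array was the lowest for 28.8% of all genes. The part of these cell types in the results below was not tested.

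**Figure D1:**
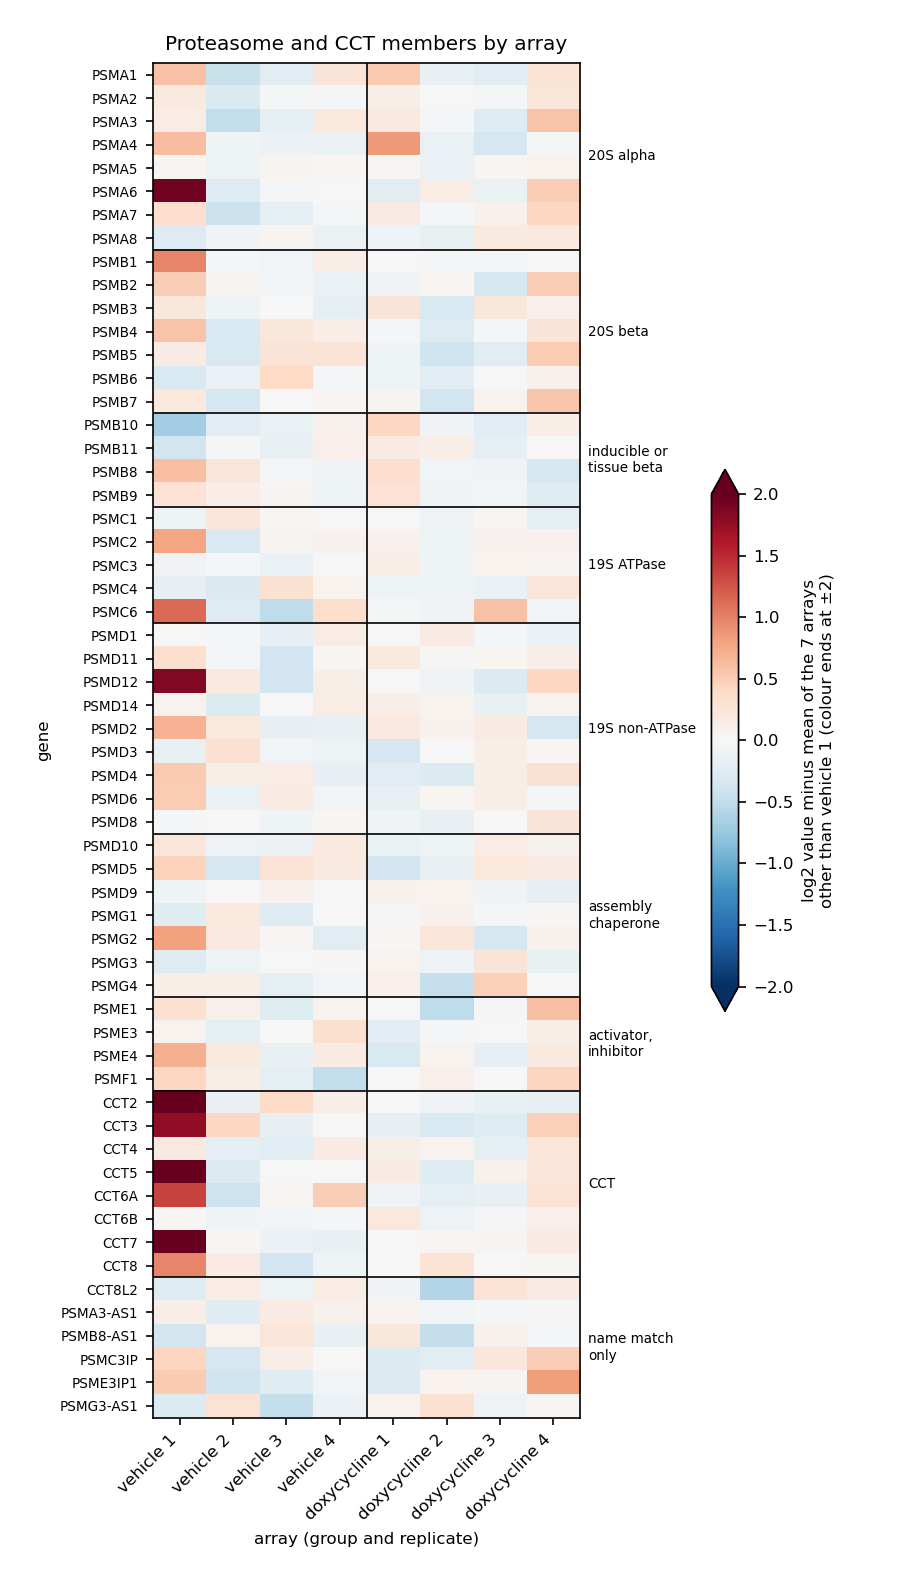
Log2 value of each of the 58 genes on each of the 8 arrays, as the difference from that gene's mean over the 7 arrays other than vehicle replicate 1; rows are grouped by role and colours end at ±2. The deep red cells lie in the vehicle 1 column, most of them among the CCT subunits, where CCT5 reached 2.93.

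The comparison of doxycycline with vehicle asks whether these genes differed in metastatic nodes 2 days into treatment. None of the 58 genes passed: with limma and a Benjamini-Hochberg adjusted p below 0.05, 0 of 58 members and 0 of 17491 genes were called, a background of 0%, and the members' adjusted p lay between 0.987 and 0.999. At an unadjusted p under 0.05 there were 0 members against 3.8% of all genes, and in 0 members did the groups not overlap, against 2.62% of all genes. Members lay slightly to the lower side. Of the 58, 33 had a difference below 0, or 56.9% against 44.5% of all genes, with a median of -0.03 where all genes had 0.02. Without vehicle replicate 1 the side turned: 21 of 58 lay below 0, or 36.2% against 49.2% of all genes, with a median of 0.04 against 0.003 over all genes. In that setting limma again called 0 members, and 1 member, PSMA7, had an unadjusted p under 0.05, against 4.91% of all genes.

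The 95% confidence intervals bound what these arrays could show. For 51 of the 58 members (87.9%, against 97.8% of all genes) the interval of the difference stayed within 1 log2 unit of 0, and without vehicle replicate 1 it did so for all 58 members (99.5% of all genes). The 7 members with wider intervals over all 8 arrays were CCT2, CCT3, CCT5, CCT6A, CCT7, PSMA6 and PSMD12, and each of them was high in vehicle replicate 1. Within that bound each gene has its own interval, which ran from -0.26 to 0.23 for PSMA5 and from -0.58 to 0.28 for PSMB5. Differences inside a gene's interval were not excluded.

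**Figure D2:**
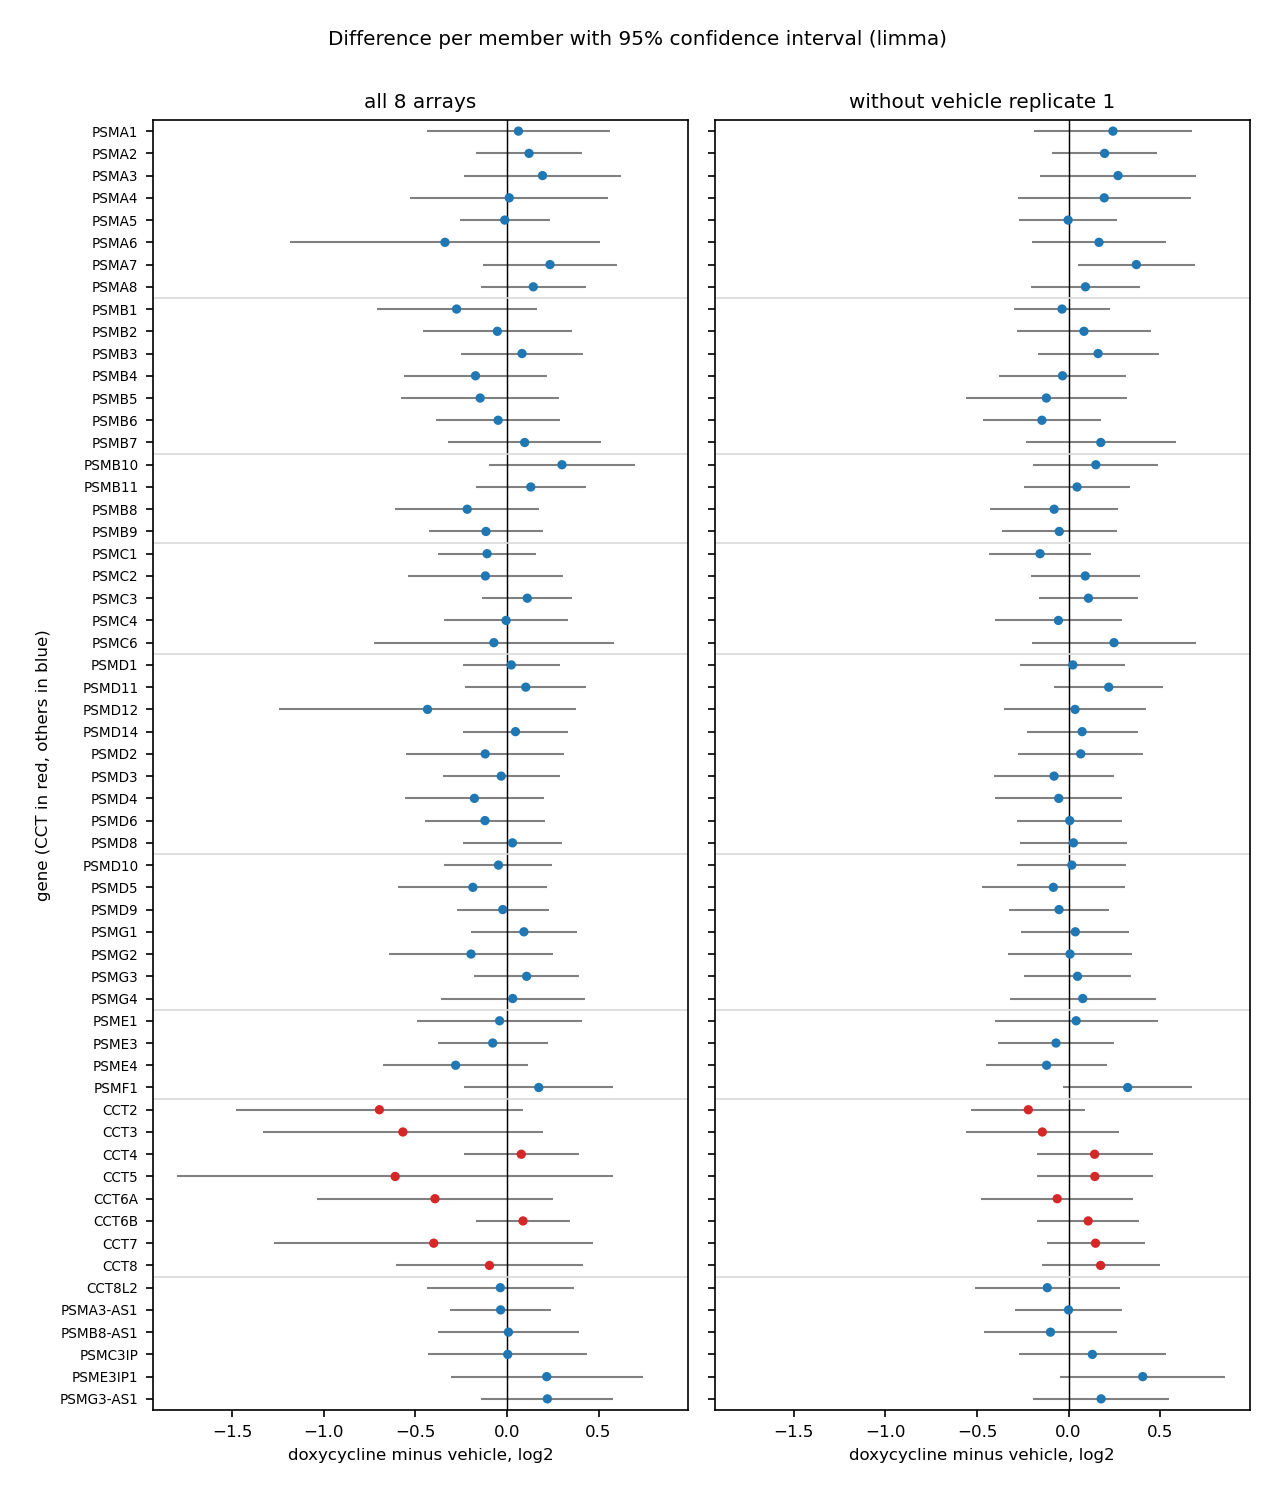
Difference (doxycycline minus vehicle, log2) of each member with its 95% confidence interval from limma, with all 8 arrays on the left and without vehicle replicate 1 on the right; CCT subunits are red. The widest intervals on the left belong to CCT5, CCT7 and PSMA6, and on the right every interval lies within 1 log2 unit of 0.

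The alpha ring of the 20S core was measured in full, with PSMA1 to PSMA7 and the testis form PSMA8. Of these 8 genes 0 passed, 6 lay above 0 and 2 below, with a median difference of 0.09 (0.20 without vehicle replicate 1). PSMA7, the alpha4 subunit, was at 7.66, 6.91, 7.15 and 7.31 in vehicle replicates 1 to 4 and at 7.50, 7.30, 7.42 and 7.75 in doxycycline replicates 1 to 4. Its groups overlapped, mainly through vehicle replicate 1, and the difference was 0.23 ± 0.17 (SE) over all arrays (limma adjusted p between 0.987 and 0.999, as for every member). Without that array the difference was 0.37 ± 0.15 (SE), unadjusted p 0.0257 and adjusted p 0.962 in limma, and every doxycycline array but replicate 2, at 7.30, was above the 3 remaining vehicle arrays. PSMA6, the alpha1 subunit, showed another pattern. It stood at 5.73, 3.55, 3.76 and 3.81 with vehicle and at 3.58, 3.96, 3.66 and 4.30 with doxycycline, so that vehicle replicate 1 alone set the sign: the difference was -0.34 ± 0.39 (SE) with it and 0.17 ± 0.17 (SE) without it. PSMA4, the alpha3 subunit, was at 5.44 in doxycycline replicate 1 and 5.21 in vehicle replicate 1, whereas the other 6 arrays lay between 4.26 and 4.55. PSMA5, the alpha5 subunit, was the steadiest of the ring, at 6.12 to 6.32 on all arrays. PSMA8 was the dimmest, at 2.64 to 3.10.

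The constitutive beta ring holds the catalytic subunits PSMB5, PSMB6 and PSMB7 and the structural subunits PSMB1 to PSMB4. Of these 7 genes 0 passed, 5 lay below 0 and 2 above, with a median difference of -0.05 (-0.03 without vehicle replicate 1). PSMB6, which carries the caspase-like site, was at 7.68, 7.87, 8.39 and 7.96 with vehicle and at 7.90, 7.76, 7.99 and 8.07 with doxycycline. Here vehicle replicate 1 was the lowest array, and the difference was -0.05 ± 0.16 (SE), or -0.15 without it. PSMB5, the chymotrypsin-like subunit that bortezomib binds, stood at 7.82 ± 0.27 (SD, n = 4) under vehicle, against 7.67 ± 0.39 (SD, n = 4) under doxycycline. PSMB7, the trypsin-like subunit, was at 6.996 ± 0.242 (SD, n = 4) and 7.09 ± 0.38 (SD, n = 4). All 3 differences were smaller than the spread within the groups, and without vehicle replicate 1 those of PSMB5 and PSMB7 were -0.12 and 0.18. PSMB1 had the smallest p on the lower side: it was at 4.37, 3.37, 3.34 and 3.52 with vehicle and at 3.38, 3.37, 3.35 and 3.40 with doxycycline. Vehicle replicate 1 was 0.98 above the other 7 arrays, which spanned only 3.34 to 3.52, and without it the PSMB1 difference went from -0.28 to -0.04. PSMB3 lay on the other side, at 6.65 ± 0.18 (SD, n = 4) and 6.73 ± 0.26 (SD, n = 4), with a difference of 0.08 (0.16 when vehicle replicate 1 was left out).

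The inducible beta subunits did not move as a block. PSMB10, which takes the place of PSMB7, was at 6.03, 6.52, 6.60 and 6.80 with vehicle and at 7.14, 6.65, 6.503 and 6.87 with doxycycline. Its difference, 0.30 ± 0.18 (SE), was the largest above 0 of all members and came to 0.15 ± 0.16 (SE) without vehicle replicate 1, the lowest array. PSMB8, which takes the place of PSMB5, ran the other way: 6.65, 6.30, 6.02 and 5.98 with vehicle and 6.39, 5.995, 5.98 and 5.71 with doxycycline, a difference of -0.22 ± 0.18 (SE) that was -0.08 without vehicle replicate 1. PSMB9, which takes the place of PSMB6, was at 5.13 ± 0.16 (SD, n = 4) and 5.01 ± 0.22 (SD, n = 4), a difference of -0.11 (-0.05 when vehicle replicate 1 was left out). PSMB11, the beta subunit of the thymus, was at 5.42 to 5.94 on all arrays, with vehicle replicate 1 lowest, and its difference went from 0.13 to 0.05 without that array. In vehicle replicate 1 PSMB8 was 0.60 above the other 7 arrays and PSMB10 was 0.69 below them, although both belong to the same particle.

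In the 19S cap, 5 of the 6 ATPases were measured, and 0 passed, with a median difference of -0.07 (0.09 without vehicle replicate 1). PSMC1 and PSMC3 were nearly flat, at 8.06 to 8.502 and 8.09 to 8.35 over the 8 arrays, with differences of -0.11 ± 0.12 (SE) and 0.11 ± 0.11 (SE), or -0.16 and 0.11 without vehicle replicate 1. PSMC6 was the most uneven ATPase: it was at 5.35, 3.95, 3.70 and 4.56 with vehicle and at 4.18, 4.14, 4.80 and 4.15 with doxycycline. Its difference was -0.07 ± 0.30 (SE) and turned to 0.25 ± 0.21 (SE) without vehicle replicate 1. Among 9 of 11 non-ATPase subunits, 0 passed, and the median difference was -0.03 (0.03 without that array). PSMD14, the enzyme that removes ubiquitin from substrates, was steady at 8.14 to 8.56 with a difference of 0.05 ± 0.13 (SE), or 0.07 without vehicle replicate 1. PSMD4, a ubiquitin receptor, was at 6.72 ± 0.29 (SD, n = 4) under vehicle, against 6.54 ± 0.27 (SD, n = 4) under doxycycline. Its difference of -0.18 was -0.05 without vehicle replicate 1, its highest array. PSMD1, the large scaffold of the base, was the dimmest of the set and lay between 4.17 and 4.49 on all arrays. PSMD11, a lid subunit, was at 6.86 ± 0.30 (SD, n = 4) and 6.96 ± 0.08 (SD, n = 4), a difference of 0.10 (0.22 when vehicle replicate 1 was left out). PSMD12, also a lid subunit, stood at 6.11, 4.46, 3.88 and 4.38 with vehicle and 4.25, 4.18, 3.98 and 4.67 with doxycycline. As for PSMA6, its difference of -0.43 ± 0.37 (SE) came from vehicle replicate 1 and was 0.04 ± 0.18 (SE) without it.

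Assembly chaperones build the core (PSMG1 to PSMG4) and the base of the cap (PSMD5, PSMD9 and PSMD10) and leave the finished particle. Of these 7, 0 passed and the median difference was -0.02 (0.02 without vehicle replicate 1). PSMG1 was the dimmest member of all, at 2.52 to 2.98, and PSMG3 the brightest of this set, at 6.46 to 6.98. PSMD5 had the smallest p of the set on the lower side, from 3.82 ± 0.34 (SD, n = 4) to 3.63 ± 0.28 (SD, n = 4), a difference of -0.19 (-0.08 when vehicle replicate 1 was left out). Among activators, which open the core without ubiquitin, PSME4 (PA200) was at 5.46, 4.95, 4.60 and 4.92 with vehicle and at 4.45, 4.82, 4.59 and 4.94 with doxycycline. Its difference of -0.28 ± 0.18 (SE) was -0.12 ± 0.15 (SE) without vehicle replicate 1. PSME1, an interferon-inducible activator subunit, varied more within the groups than between them, from 5.96 to 6.51 with vehicle and from 5.70 to 6.81 with doxycycline, and its difference was -0.04 with vehicle replicate 1 and 0.04 without it. PSMF1, which binds the core and was named as its inhibitor, was at 5.55, 5.27, 4.95 and 4.64 with vehicle and at 5.15, 5.24, 5.15 and 5.56 with doxycycline. Its difference was 0.17 ± 0.19 (SE), and 0.32 ± 0.17 (SE) without vehicle replicate 1.

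The CCT subunits had the most negative median difference of the 8 roles, -0.40 over 8 measured genes with 6 below 0 and 0 called, and it turned to 0.12 without vehicle replicate 1, with 3 below 0. CCT2 was at 7.61, 5.43, 5.98 and 5.71 with vehicle and at 5.57, 5.52, 5.44 and 5.42 with doxycycline. Its difference of -0.70 ± 0.36 (SE) had the smallest p of all members (unadjusted 0.0770 in limma), and it was -0.22 ± 0.15 (SE) without vehicle replicate 1, where 2 of the 3 remaining vehicle arrays still lay above the doxycycline range. CCT5 was at 8.33, 5.13, 5.41 and 5.41 with vehicle and at 5.56, 5.15, 5.49 and 5.64 with doxycycline. CCT7 was at 5.40, 3.32, 3.18 and 3.15 with vehicle and at 3.30, 3.34, 3.35 and 3.46 with doxycycline. For both genes the sign rested on vehicle replicate 1: the differences were -0.61 ± 0.55 (SE) and -0.40 ± 0.40 (SE) with it, and 0.14 ± 0.15 (SE) and 0.15 ± 0.13 (SE) without it. CCT3 stood at 7.04, 5.68, 5.10 and 5.25 with vehicle and at 5.09, 4.95, 5.02 and 5.74 with doxycycline. CCT6A was at 6.34, 4.57, 5.01 and 5.48 with vehicle and at 4.91, 4.81, 4.83 and 5.28 with doxycycline. Both were highest in vehicle replicate 1, and their differences went from -0.57 and -0.39 to -0.14 and -0.06 without it. CCT4 did not share the pattern, though it sits in the same ring: it was at 7.08, 6.72, 6.69 and 7.07 with vehicle and at 7.03, 6.97, 6.73 and 7.14 with doxycycline, a difference of 0.08 ± 0.14 (SE), or 0.14 without vehicle replicate 1. CCT6B, the testis relative of CCT6A, was dim throughout, at 2.97 to 3.28.

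**Figure D3:**
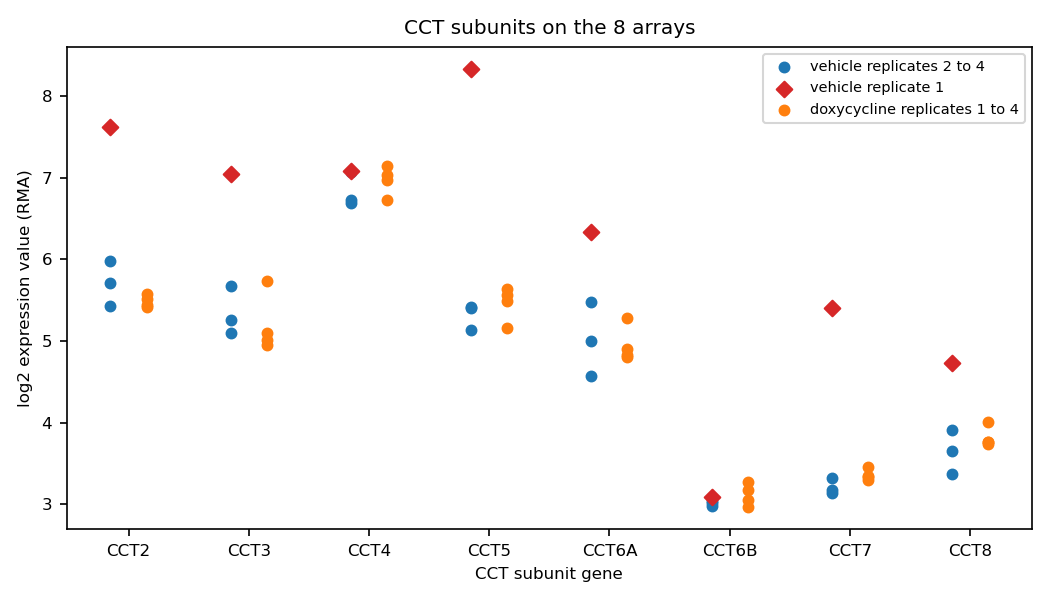
Log2 expression value of each of the 8 measured CCT subunit genes on each array; red diamonds mark vehicle replicate 1, blue points the other 3 vehicle arrays and orange points the 4 doxycycline arrays. For CCT5 the diamond lies at 8.33 while the other 7 arrays lie between 5.13 and 5.64; for CCT4 and CCT6B it lies within their range.

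The genes matched by name only were no subunits. They are the antisense RNAs PSMA3-AS1, PSMB8-AS1 and PSMG3-AS1, the recombination factor PSMC3IP, the PSME3-binding protein PSME3IP1 and the CCT8-like gene CCT8L2. Of these 6, 0 passed and 4 lay above 0. PSME3IP1 had the widest spread, with 4.00 in doxycycline replicate 4 and 2.77 to 3.68 in the other 7 arrays, and a difference of 0.22 ± 0.24 (SE). PSMG3-AS1 differed by 0.22 ± 0.17 (SE), PSMC3IP by 0.004 ± 0.20 (SE), PSMB8-AS1 by 0.01 ± 0.18 (SE), PSMA3-AS1 by -0.03 ± 0.13 (SE) and CCT8L2 by -0.04 ± 0.19 (SE). Each of these differences was smaller than the larger of that gene's group SDs. Without vehicle replicate 1 they were 0.40 for PSME3IP1, 0.18 for PSMG3-AS1, 0.13 for PSMC3IP, -0.10 for PSMB8-AS1 and -0.12 for CCT8L2.

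Vehicle replicate 1 was then set against the mean of the other 7 arrays for each member, which is 1 array without a replicate and so carries no test. Its excess went with CCT more than with the proteasome. With a bound of 1 log2 unit, taken after the values were seen, 8 of 58 members (13.8%, against 3.43% of all genes) lay above: CCT5 by 2.93 (7.63 times), CCT7 by 2.10, CCT2 by 2.03, PSMA6 by 1.92, PSMD12 by 1.86, CCT3 by 1.78, CCT6A by 1.36 and PSMC6 by 1.14. Just under the bound were CCT8 and PSMB1, both at 0.98. That is 5 of 8 CCT subunits and 3 of 44 proteasome genes. The median excess was 1.57 over the CCT subunits, 0.23 over the proteasome genes and -0.11 over all genes. No member lay lower by more than 1 log2 unit (0 of 58, against 0.131% of all genes). The lowest 5 were PSMB10 at -0.69, PSMB8-AS1 at -0.37, PSMB11 at -0.36, PSMB6 at -0.31 and PSMG3-AS1 at -0.27. Vehicle replicate 1 was the highest of the 8 arrays for 23 members (39.7%, against 15.2% of all genes) and the lowest for 5 members (8.62%, against 28.8% of all genes), namely PSMA8, PSMB6, PSMB10, PSMB11 and PSMG3.

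**Figure D4:**
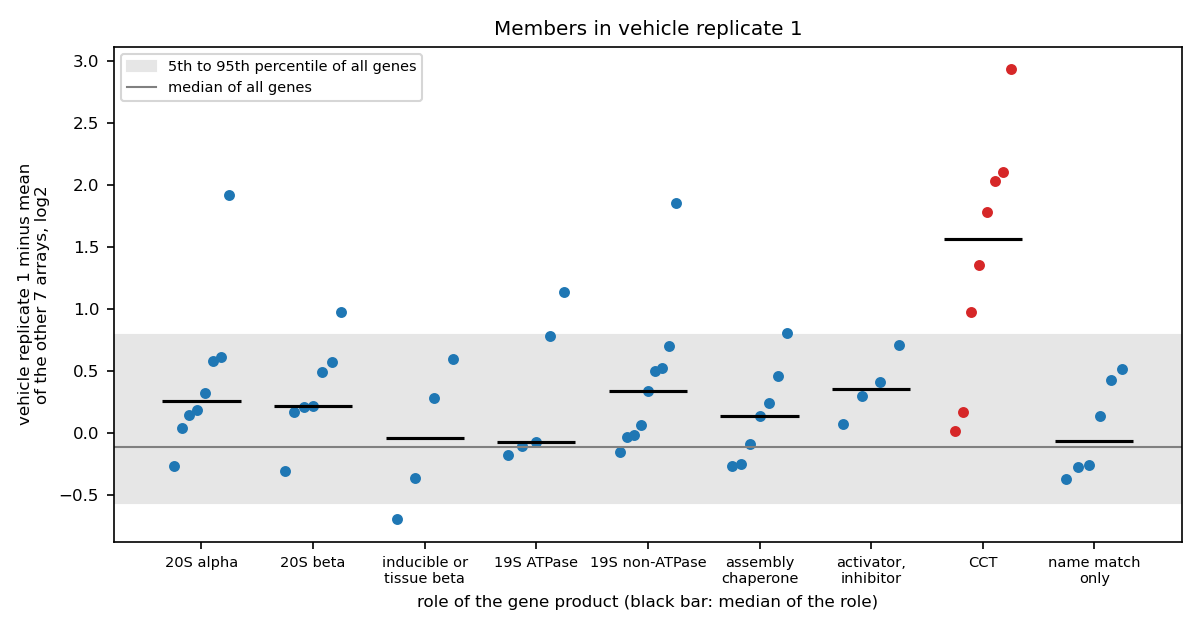
Log2 value in vehicle replicate 1 minus the mean of the other 7 arrays, 1 point per member, by role; black bars are role medians, and the grey band runs from the 5th to the 95th percentile of all genes (-0.56 to 0.79). The CCT median lies at 1.57, above the band, and the other role medians lie between -0.07 and 0.36.

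Subunits of a single particle thus differed in this array. Within the alpha ring, leaving out the dim testis form PSMA8 (-0.26), the excess ran from 0.04 for PSMA5 to 1.92 for PSMA6. Within the ATPase ring it ran from -0.17 for PSMC4 to 1.14 for PSMC6. Dimmer members had the excess more often, though this did not hold among the CCT subunits. With brightness taken from the 4 doxycycline arrays and the excess from vehicle replicate 1 minus the other 3 vehicle arrays, so that no array is shared, Pearson's r was -0.30 and Spearman's rho -0.31 across the 58 members, against -0.12 and -0.14 across all genes. Within the 8 CCT subunits, which hold 5 of the 8 members with the excess, they were 0.05 and 0.21. Genes are not independent replicates, and all points share the same arrays and normalization. Of 24 members dimmer than the gene median in doxycycline arrays, 6 had an excess over 1 log2 unit by this second measure (25%, against 4.86% of all dimmer genes), and of 34 brighter members 3 did (8.82%, against 2.13%). Those 3 brighter members were the CCT subunits CCT2, CCT3 and CCT5. By this second measure CCT8 also passed the bound. RefSeq lists pseudogenes by name for 24 members, for 6 of the 8 with the excess and for 18 of the other 50. CCT2 and CCT6A have the excess and 0 pseudogenes by this name rule. The rule misses pseudogenes named in another way, such as from CCT6 without the A. Whether any probe set reads a pseudogene was not tested.

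**Figure D5:**
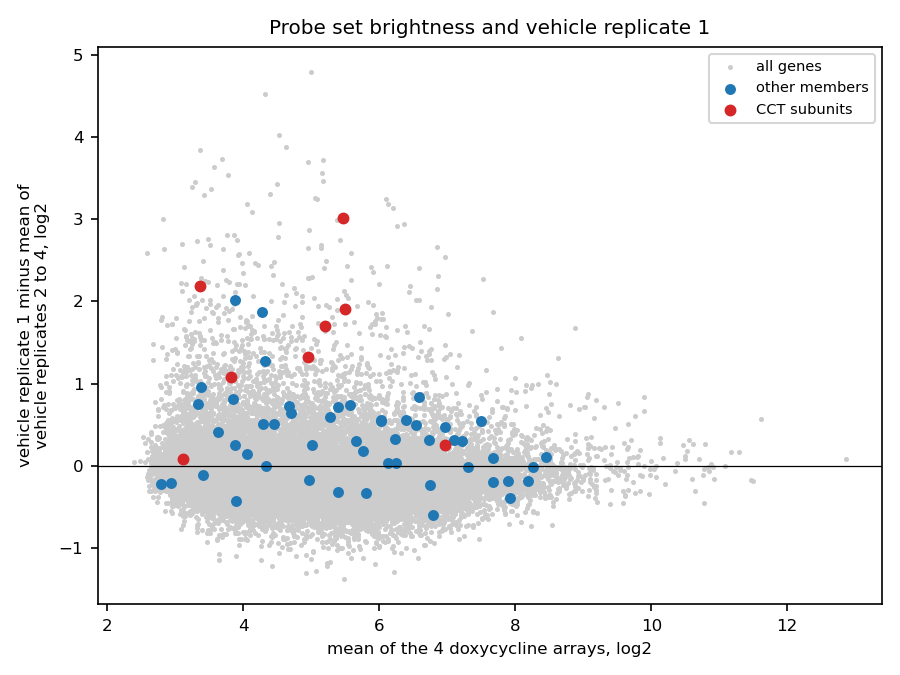
Mean log2 value of the 4 doxycycline arrays (horizontal) against vehicle replicate 1 minus the mean of vehicle replicates 2 to 4 (vertical) for all genes in grey, CCT subunits in red and the other members in blue. Members above 8 on the horizontal axis lie near 0, and CCT5 is the highest member.

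Among the other 7 arrays the members varied about as much as other genes, with a median SD of 0.21 against 0.19. Doxycycline replicate 4 was the highest of the 7 for 20 members (34.5%, against 15% of all genes), and vehicle replicate 2 and doxycycline replicate 2 were each the lowest for 14 (24.1%, against 15.6% and 12.4% of all genes). In the alpha ring the mean over 8 genes was 5.63 in doxycycline replicate 4 and 5.09 in vehicle replicate 2. In the constitutive beta ring the mean over 7 genes was 6.74 in doxycycline replicate 4 and 6.23 in doxycycline replicate 2, and the vehicle arrays other than replicate 1 lay between 6.29 and 6.57. PSMB5 was at 8.22 in the former doxycycline array and 7.32 in the latter, a wider gap than its difference between the groups. PSMA3, the alpha7 subunit, was at 7.66 in doxycycline replicate 4 and 6.60 in vehicle replicate 2. PSMB1 did not vary in this way, at 3.35 to 3.40 over the doxycycline arrays.

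Promoters of members are shown because the excess of vehicle replicate 1 fell on some subunits and not on others, and because Omomyc acts on MYC, which binds the E-box. The RefSeq promoter table (GRCh38.p14) matched 51 of the 58 members, and the 250 bases before the start of each were searched on both strands. The E-box CACGTG lay in 4 of 51 member promoters, those of PSMB3, PSMD9, PSME3 and PSME3IP1. That is 7.84%, against 7.72% of 14129 promoters of genes on the array and 6.49% of all 27305 promoters. The E-box lay in 0 of the 7 matched members with the excess and in 4 of the other 44. At the share of the array genes, 0 of 7 is not read as a difference. The antioxidant response core TGACNNNGC, which NFE2L1 and NFE2L2 bind, lay in 12 member promoters (23.5%, against 11.7% of array genes and 11% of all). CCAAT, bound by NF-Y, lay in 23 (45.1%, against 34.6% of array genes and 33% of all). Among matched members with the excess, 1 of 7 had the antioxidant core, against 11 of the other 44. For CCAAT these were 2 of 7 and 21 of 44. The heat shock unit GAANNTTC lay in 1 (1.96%, against 4.65% of array genes and 5.85% of all), that of PSMC3IP. These are matches of letters in a window before 1 listed start per gene, and a base could count towards more than 1 motif. The CCT5 window, 1 of the 7 and without a match to any of the motifs, holds an ATG followed by an open reading frame. It may thus lie inside the gene, and other starts were not searched, so the counts out of 7 may miss motifs of CCT5.

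Printed below, 5′ to 3′ in the direction of transcription, are the 250 bases before the start of CCT2 (chr12:69585209-69585458, plus strand), CCT3 (chr1:156338293-156338542, minus strand) and CCT7 (chr2:73234058-73234307, plus strand), which were among the CCT subunits high in vehicle replicate 1, of PSMD12 (chr17:67366578-67366827, minus strand), the lid subunit with the excess, and of PSMB3 (chr17:38752491-38752740, plus strand), a flat core subunit that holds an E-box. Capitals mark every match to these motifs on either strand.
CCT2: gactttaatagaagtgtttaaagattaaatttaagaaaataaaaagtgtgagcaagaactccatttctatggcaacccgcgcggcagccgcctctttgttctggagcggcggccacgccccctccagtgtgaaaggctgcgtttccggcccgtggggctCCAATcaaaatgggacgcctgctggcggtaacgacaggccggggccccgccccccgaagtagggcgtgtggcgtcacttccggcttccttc
CCT3: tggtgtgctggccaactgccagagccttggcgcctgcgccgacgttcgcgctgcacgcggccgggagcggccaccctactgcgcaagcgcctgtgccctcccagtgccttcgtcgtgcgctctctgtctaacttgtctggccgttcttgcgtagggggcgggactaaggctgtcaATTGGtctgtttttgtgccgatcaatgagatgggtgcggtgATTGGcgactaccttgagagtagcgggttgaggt
CCT7: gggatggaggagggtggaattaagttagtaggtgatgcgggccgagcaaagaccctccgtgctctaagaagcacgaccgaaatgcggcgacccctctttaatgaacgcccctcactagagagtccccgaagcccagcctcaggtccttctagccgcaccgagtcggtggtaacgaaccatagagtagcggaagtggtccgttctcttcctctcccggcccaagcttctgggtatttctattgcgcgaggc
PSMD12: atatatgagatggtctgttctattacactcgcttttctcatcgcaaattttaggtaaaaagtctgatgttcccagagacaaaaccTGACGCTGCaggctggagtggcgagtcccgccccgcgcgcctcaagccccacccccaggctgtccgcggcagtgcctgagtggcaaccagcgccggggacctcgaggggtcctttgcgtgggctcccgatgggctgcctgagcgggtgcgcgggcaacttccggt
PSMB3: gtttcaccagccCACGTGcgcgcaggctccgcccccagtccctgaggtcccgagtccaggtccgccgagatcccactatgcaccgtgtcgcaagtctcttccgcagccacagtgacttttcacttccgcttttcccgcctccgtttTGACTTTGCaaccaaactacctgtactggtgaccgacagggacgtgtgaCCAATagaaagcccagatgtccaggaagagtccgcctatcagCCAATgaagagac
CCT2 has 1 CCAAT match, CCT3 has 2, both on the opposite strand, and CCT7, whose excess was 2.10, has no match. PSMD12 has 1 antioxidant response core. PSMB3, whose excess was 0.22, has 1 E-box, 1 antioxidant response core and 2 CCAAT matches. Whether any of these motifs bears on the excess was not tested.

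The rest of the pathway gave a similar picture, and 0 genes of these lists passed over all genes. Of 12 proteasome partners outside the name pattern, 7 lay below 0 and the median was -0.04 (5 and 0.01 without vehicle replicate 1). POMP, which matures the core, was at 3.47 ± 0.35 (SD, n = 4) under vehicle, against 3.12 ± 0.18 (SD, n = 4) under doxycycline, and FBXO7, an F-box protein that binds PSMF1, at 3.53 ± 0.32 (SD, n = 4), against 3.82 ± 0.11 (SD, n = 4). Without vehicle replicate 1 the difference of POMP went from -0.35 to -0.22 and that of FBXO7 from 0.28 to 0.44. UCHL5, a ubiquitin hydrolase of the cap, was 1.998 above the other arrays in vehicle replicate 1. Of 16 genes for ubiquitin, its activating enzymes and shuttle factors, 8 lay below 0 and the median was -0.01 (7 and 0.08 without vehicle replicate 1). UBQLN1, a shuttle factor, differed by -0.44 ± 0.31 (SE), which was -0.05 without vehicle replicate 1, and FAF1, a cofactor of the VCP segregase, by 0.30 ± 0.16 (SE), or 0.37 without it. Of 13 transcription factors and processing genes that act on proteasome genes, 6 lay below 0 with a median of 0.03, and without vehicle replicate 1 the side turned, with 8 below 0 and a median of -0.05. NFE2L1, which restores proteasome genes when the proteasome is blocked, was at 8.79 ± 0.18 (SD, n = 4) and 8.82 ± 0.19 (SD, n = 4). NFYC, a subunit of NF-Y named for the smallest p of its list, was at 4.48 ± 0.31 (SD, n = 4) under vehicle, against 3.98 ± 0.13 (SD, n = 4) under doxycycline, with groups that did not overlap, as for 2.62% of all genes. Its difference was -0.49 ± 0.16 (SE), -0.34 without vehicle replicate 1, and did not pass. STAT3 lay on the other side with 0.17 ± 0.14 (SE), or 0.15 without that array.

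Partners of CCT included both high and flat genes in vehicle replicate 1. Of 17 prefoldin genes and CCT or tubulin cofactors, which hand substrates to CCT or take them up, 9 lay below 0 and the median was -0.03 (6 and 0.03 without vehicle replicate 1). In that array 5 of the 17 were more than 1 log2 unit above the others, against 3.43% of all genes. They were PFDN5 by 1.80, PFDN4 by 1.70, TBCA by 1.503, TXNDC9 by 1.24 and PFDN1 by 1.07, while PFDN2 was at -0.07. The excess was not particular to this list. By the same bound it held for 4 of 16 ubiquitin and shuttle genes, 3 of 12 peptide loading genes and 2 of 14 actins and tubulins. It also held for 1 of 12 proteasome partners and 0 of 13 transcription factor and processing genes. TXNDC9 differed between the groups by -0.51 ± 0.24 (SE), -0.23 without vehicle replicate 1, and PDRG1 by 0.11 ± 0.15 (SE). Of 14 actins and tubulins, the classic substrates of CCT, 12 lay below 0 with a median of -0.18, and without vehicle replicate 1 all 14 did, with a median of -0.14. The vehicle arrays were uneven here: the list mean was 8.11 in vehicle replicate 1, 8.12, 7.80 and 7.57 in replicates 2 to 4, and 7.62 to 7.71 with doxycycline, so that vehicle replicate 4 lay below every doxycycline array. TUBB4B, a beta-tubulin named for the smallest p of its list, differed by -0.98 ± 0.39 (SE), and by -0.46 without vehicle replicate 1. Its groups did not overlap, as for 2.62% of all genes, and it did not pass. TUBB6 was at 7.72 ± 0.09 (SD, n = 4) and 7.73 ± 0.20 (SD, n = 4). Of 12 genes for peptide loading and interferon-gamma response, 8 lay below 0 with a median of -0.08, and without vehicle replicate 1 the side turned, with 5 below 0 and a median of 0.03. ERAP1, which trims peptides cut by the proteasome, differed by -0.37 ± 0.17 (SE), and TAPBP, which loads them, by 0.15 ± 0.13 (SE). Without vehicle replicate 1 these were -0.27 and 0.21. In vehicle replicate 1 CALR and B2M of this list were 3.44 and 3.07 above the other arrays.

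Cell type markers were set beside these comparisons, and 0 of them passed. Over all genes, 9706 of 17491 lay above 0. With doxycycline all 10 skeletal muscle markers lay above 0, with list means of 6.41 to 7.14 against 6.15 to 6.62 with vehicle, which overlapped. Of 8 adipocyte markers 7 lay above 0, with list means of 5.59 to 5.86 against 5.20 to 5.51. The adipocyte list means of the groups did not overlap, with or without vehicle replicate 1. Macrophage and dendritic cell markers had list means of 5.78 to 5.93 against 5.74 to 5.81, fibroblast markers 5.94 to 6.15 against 5.89 to 6.03, and endothelial markers 5.67 to 5.80 against 5.56 to 5.76. Of 8 melanoma markers 7 lay above 0, with list means of 5.29 to 5.33 with doxycycline and 4.98 to 5.26 with vehicle, groups that did not overlap with or without vehicle replicate 1, and no single marker passed. Lymphocyte list means were 5.59 to 5.68 against 5.40 to 5.74. Of 8 markers 5 lay above 0 with a median of 0.01, and without vehicle replicate 1 these were 4 and -0.008. PTPRC, the pan-leukocyte gene CD45, had the largest difference of the list, 0.50 (unadjusted p 0.040 in limma, adjusted 0.987), or 0.39 without vehicle replicate 1. CD3D had the lowest, -0.21, or -0.31 without that array. The part of these cell types in the members' values was not tested.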

How the data were processed

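For every array the authors deposited a log2 value per probe set, and the submitters' processing notes name RMA; its version and the genome build were not given in the sources used here. Of 18565 probe sets, 17509 had 1 gene symbol in the platform annotation, 0 had several and 1056 had none and were left out, which left 17491 genes; a gene with several probe sets kept the brightest. Each of the 58 members had 1 probe set, and all 58 matched RefSeq by gene ID.

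Differences (doxycycline minus vehicle, 4 arrays each) were fitted with limma 3.58.1 (lmFit, eBayes) under R 4.3.3 with no covariate; p-values were two-sided, were adjusted over every gene by Benjamini-Hochberg and were called below 0.05. The labels call the samples biological replicas, and their number limits the precision. Members and lists were chosen with earlier results of these data known. Members, lists and the host markers were given by counts and medians, without a test over the list. The fit was tested on simulated data. Named genes are, per role, the brightest, the dimmest and those with the smallest p in each direction, the 5 highest and 5 lowest in vehicle replicate 1, members in no role list and, per pathway list, the smallest p in each direction; others were named after their values were seen. Alternatives were the replicate block, 3 normalizations, filters on dim genes, probe set means, another variance model, array weights, a threshold of 0.1 and each array left out. Plots used matplotlib 3.10.9 in Python 3.11.15.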

Additional observations from a re-analysis of the deposited data

Results flagged for a closer look

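A single array far from the other 3 of its group was found for 6 of 84 values examined, where chance gives about 1 in 20. The genes examined include some that were named because they were high in vehicle replicate 1, so the count is not read against that share. Vehicle replicate 1 accounts for 4 of them: PSMA6 at 5.73 (3.55 to 3.81 in the other vehicle arrays), CCT5 at 8.33 (5.13 to 5.41), CCT7 at 5.40 (3.15 to 3.32) and the mean of the CCT subunits at 6.20 (4.72 to 4.84). PSMC6 was at 4.80 in doxycycline replicate 3 and at 4.14 to 4.18 in the other doxycycline arrays. PSMA3-AS1 was at 3.81 in vehicle replicate 2 and at 4.15 to 4.22 in the other vehicle arrays.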

How the results depend on the processing

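Under all 18 alternatives limma called 0 of 17491 genes (or of the brighter genes under a filter) and 0 members, with a smallest adjusted p over all genes of 0.808 to 1. With the replicate block 33 members lay below 0, as without it; same-numbered arrays deviated together at correlations of -0.05 to 0.15, so the numbers were not taken as pairs. Members below 0 numbered 19 without the dimmest 50% of genes, where fewer members were tested, and 21 to 36 with each array left out, 21 of them without vehicle replicate 1. Their median difference ran from -0.06 to 0.04 with each array left out. The alternatives for vehicle replicate 1 were added after the data were seen: its median excess over members was 0.40 under cyclic loess, and without the dimmest 50% of genes 4 members exceeded 1 log2 unit. Of 34 named members 15 changed sign at least once; the cause was not tested. Differences turned to -0.00223, -0.00422, -0.0213 and -0.0189 for PSMB8-AS1 and to -0.00621, -0.00933 and -0.0278 for PSMC3IP under centring, quantile normalization, cyclic loess and (PSMB8-AS1 only) array weights. PSMD1 turned to -0.00809 under cyclic loess and PSMC6 to 0.00811 with array weights. With each array left out the ranges were -0.56 to 0.17 for PSMA6, -0.15 to 0.09 for PSMB6, -0.30 to 0.25 for PSMC6, -0.04 to 0.11 for PSMD14, -0.0293 to 0.0769 for PSMD1, -0.71 to 0.0352 for PSMD12, -0.024 to 0.22 for PSMD11, -0.23 to 0.14 for PSME1, -0.92 to 0.14 for CCT5, -0.61 to 0.15 for CCT7, -0.10 to 0.15 for PSMB8-AS1, -0.15 to 0.14 for CCT8L2, -0.13 to 0.00624 for PSMA3-AS1, -0.14 to 0.13 for PSMC3IP and -0.00477 to 0.41 for PSME3IP1. Signal over background was not assessed here.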
